A study of Mus musculus with 4 samples.

Results

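Of 17709 gene promoters examined in the mouse aortic media, 405 (2.29%) had no read of histone H3 lysine 9 dimethylation (H3K9me2) in either of 2 chromatin immunoprecipitation (ChIP) experiments. These promoters were chosen by that count alone, so their lack of ChIP reads is the selection and not a result. The deposited table lists 26354 promoters, each a window of 1 kb either side of a transcription start site. Symbol patterns were used to leave out predicted and clone-named genes, microRNAs, small nucleolar RNAs, histones and ribosomal proteins. They also left out zinc finger (Zfp), solute carrier (Slc) and complex I (Nduf) genes, the mitochondrial genome and RIKEN transcripts. This removed 8645 promoters, 118 of them also without ChIP reads. Genes of these classes whose symbols are written otherwise stayed, such as H2afx, mmu-mir-703 and CT033751.1 among the 405. The 4 libraries were made from aortic vascular smooth muscle cells (VSMCs) of male C57Bl/6J mice, taken ex vivo after the adventitia and endothelium had been removed by hand. Experiments v102 and v134 each gave 1 H3K9me2 ChIP library and 1 input library of sheared chromatin without immunoprecipitation. No mouse was treated, no gene was altered, and the age of the mice and the number pooled per library are not given in the sources used here. The comparison is therefore ChIP with input within untreated tissue, and no condition was compared.

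H3K9me2 is a repressive mark of chromatin that is silent in a given cell type, written mainly by the methyltransferases EHMT2 and EHMT1 and removed by demethylases of the KDM3 and KDM4 families. It covers broad stretches of chromatin around silent tissue-specific genes, and promoters in use usually lack it. Many promoters of broadly used genes lie in CpG islands, stretches rich in cytosine followed by guanine (CG), whereas promoters of tissue-specific genes are more often poor in CG.

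Sequences of 5 of the promoters without ChIP reads follow, chosen for having the most input reads among those with a RefSeq sequence, together with that of Mmp3, an inflammation-responsive matrix metalloproteinase whose promoter carried ChIP reads. Each runs from 250 bases before to 50 bases after the RefSeq start (300 bases, GRCm38.p6), 5′ to 3′ on the strand of the gene, with every CG in capitals. Tpp2 lies at chr1:43933744-43934043 on the plus strand, Kcnh1 at chr1:192190527-192190826 on the plus strand, Zbtb25 at chr12:76369511-76369810 on the minus strand, Zbtb5 at chr4:45012363-45012662 on the minus strand, Acaa1b at chr9:119157044-119157343 on the minus strand and Mmp3 at chr9:7445572-7445871 on the plus strand. The RefSeq start of Tpp2 is 347 bases from the start in GENCODE.
Tpp2: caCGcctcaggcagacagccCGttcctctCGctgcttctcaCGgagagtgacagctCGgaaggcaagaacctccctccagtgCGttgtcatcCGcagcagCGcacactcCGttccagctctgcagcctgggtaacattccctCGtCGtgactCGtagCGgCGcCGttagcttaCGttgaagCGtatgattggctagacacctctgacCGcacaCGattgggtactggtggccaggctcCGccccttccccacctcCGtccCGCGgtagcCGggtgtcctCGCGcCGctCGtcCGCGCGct
Kcnh1: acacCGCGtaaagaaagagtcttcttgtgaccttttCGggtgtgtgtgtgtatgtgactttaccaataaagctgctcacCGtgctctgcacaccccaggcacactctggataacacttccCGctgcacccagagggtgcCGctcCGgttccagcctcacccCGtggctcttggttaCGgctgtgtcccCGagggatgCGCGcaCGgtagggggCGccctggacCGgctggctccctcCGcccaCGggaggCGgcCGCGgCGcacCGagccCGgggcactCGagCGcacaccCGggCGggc
Zbtb25: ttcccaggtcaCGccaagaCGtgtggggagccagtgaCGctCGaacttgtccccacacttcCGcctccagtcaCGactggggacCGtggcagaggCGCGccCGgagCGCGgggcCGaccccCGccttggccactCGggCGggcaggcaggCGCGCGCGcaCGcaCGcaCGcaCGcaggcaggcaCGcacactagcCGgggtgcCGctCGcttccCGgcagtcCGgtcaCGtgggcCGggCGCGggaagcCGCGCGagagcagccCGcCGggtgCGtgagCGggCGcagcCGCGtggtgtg
Zbtb5: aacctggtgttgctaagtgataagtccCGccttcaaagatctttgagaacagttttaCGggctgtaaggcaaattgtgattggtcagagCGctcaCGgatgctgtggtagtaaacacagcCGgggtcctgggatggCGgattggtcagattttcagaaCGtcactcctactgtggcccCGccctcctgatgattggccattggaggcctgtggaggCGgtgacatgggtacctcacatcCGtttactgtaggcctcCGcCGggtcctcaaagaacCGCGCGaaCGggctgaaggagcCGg
Acaa1b: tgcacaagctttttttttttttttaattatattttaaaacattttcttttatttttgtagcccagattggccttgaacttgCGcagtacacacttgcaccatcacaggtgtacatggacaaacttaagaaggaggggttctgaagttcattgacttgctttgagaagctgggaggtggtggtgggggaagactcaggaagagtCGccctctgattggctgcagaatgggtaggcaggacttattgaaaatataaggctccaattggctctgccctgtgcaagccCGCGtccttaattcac
Mmp3: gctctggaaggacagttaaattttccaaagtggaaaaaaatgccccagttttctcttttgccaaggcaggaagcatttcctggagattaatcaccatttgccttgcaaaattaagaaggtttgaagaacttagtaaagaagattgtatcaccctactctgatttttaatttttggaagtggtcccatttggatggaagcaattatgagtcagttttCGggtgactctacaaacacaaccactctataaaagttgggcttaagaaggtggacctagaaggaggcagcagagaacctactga

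The capitals show how unlike each other these promoters are. Zbtb25 held 44 CG in the 300 bases, Tpp2 31, Kcnh1 27 and Zbtb5 17, while Acaa1b held 4 and Mmp3 held 1. The reads were counted over the wider 2 kb window, where Acaa1b held 76 CG at 56.8% GC, so its few CG apply to the printed stretch alone.

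The promoters without ChIP reads that had most input reads belonged to genes of unrelated functions. Tpp2, a peptidase that trims peptides left by the proteasome, had 20 and 79 input reads in v102 and v134 and 0 ChIP reads in both. Kcnh1, a voltage-gated potassium channel of the nervous system, had 34 and 55 input reads. Adat1, an adenosine deaminase acting on tRNA, had 20 and 67. The BTB zinc finger factors Zbtb25 and Zbtb5 each had 33 and 51 input reads, and Acaa1b, a peroxisomal thiolase, had 25 and 55. Acaa1b has a closely similar neighbour, Acaa1a, so its read assignment is less certain. The other 19 of the 25 promoters with most input had 20 to 30 reads in the v102 input and 39 to 60 in the v134 input. They included those of Cdc37 (a partner of Hsp90 that loads kinases), Fhl3 (a LIM domain protein), Vti1a (a SNARE of the Golgi), Tomm6 (a subunit of the outer mitochondrial translocase), Pdk2 (a kinase of pyruvate dehydrogenase), Zdhhc5 (a palmitoyl transferase), Pold2 (a subunit of DNA polymerase delta), Usp21 (a deubiquitinase), Rmnd1 (needed for mitochondrial translation), Aph1b (a subunit of gamma-secretase), Rara (a retinoic acid receptor), Xpo5 (the exporter of microRNA precursors) and Emilin1 (a glycoprotein of elastic fibres). Those of Ankrd12, Mkln1, Pafah1b3, Gadd45b, Cox19 and Dtx3 completed the 25. The lowest 2, Dtx3 and Emilin1, shared their 68 summed reads with Ephx1, Fam129c and Kdm6b, and the tie was cut in alphabetical order.

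**Figure D1:**
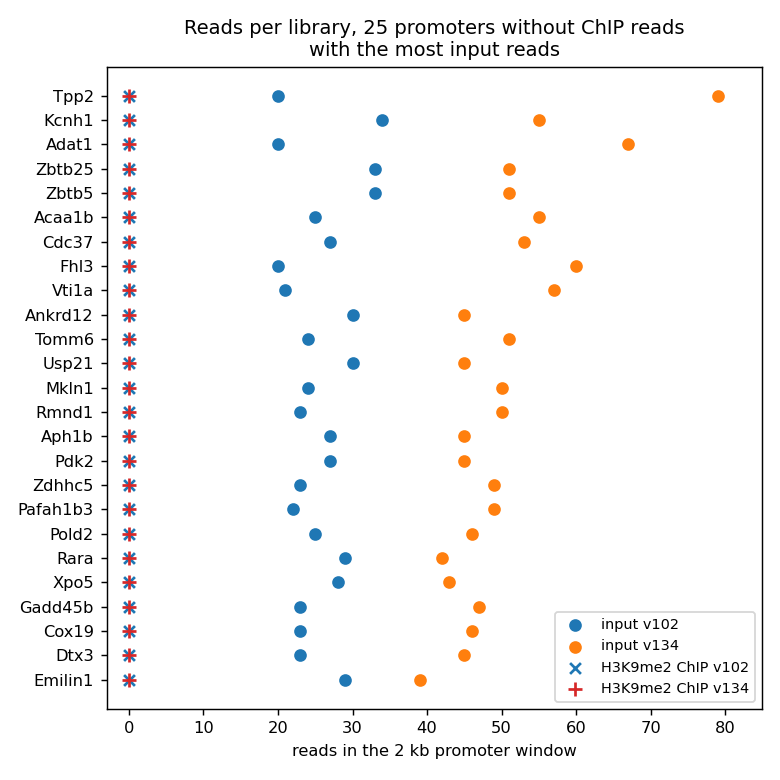
Reads in each of the 4 libraries (x axis, reads in the 2 kb window) at the 25 promoters without ChIP reads that had the most input reads, 1 row per promoter. Dots are the input libraries and crosses the ChIP libraries, all of which lie at 0 because that is how the promoters were chosen. The v102 input held 20 to 34 reads and the v134 input 39 to 79.

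Input reads showed that these windows were represented in the chromatin. Over all 405, input reads ranged from 6 to 34 (median 19) in v102 and from 9 to 79 (median 32) in v134, and the sum of both from 21 to 99 (median 52). At the other 17304 promoters the medians were 20 and 37, and 57 for the sum, so the promoters without ChIP reads lay slightly below the rest in both inputs. At least 20 reads in each input were found at 181 of the 405 (44.7%) and at 54.0% of the rest. The authors kept promoters by their summed input, and the lowest sum in the table was 21, so a promoter with less input could not be among the 405. The promoters with least input were Bcl2a1c, Gpc4 and Rap2c at 21 summed reads, followed by Akap14, Hcfc1, Hspa1b, Rbm10, Tmsb4x and Usp27x at 23. Bcl2a1c and Hspa1b have near-identical copies elsewhere, so reads may be split between them.

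Just outside the selection lay 902 promoters with a single ChIP read. Among those with most input were Nts (29 and 81 input reads), Pkig (30 and 78), Picalm (32 and 71) and Snx14 (28 and 66). Actb, the cytoplasmic actin promoter that the study used as a negative control for the mark, was also just outside, with 0 and 1 ChIP reads against 31 and 53 input reads. Mmp3 had 10 and 19 ChIP reads against 15 and 39 input reads. Since 1 read decides the selection, Actb cannot be told apart at this depth from the promoters without reads.

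A count of 0 sets only an upper limit. With 3 reads as the limit that a count of 0 allows, the ratio of ChIP to input reads at these promoters could be as high as 0.0303 at Tpp2 and 0.143 at Bcl2a1c, Gpc4 and Rap2c, with a median limit of 0.0577. The median deposited ratio of all 17709 promoters was 0.143 and the ratio is not scaled for library size. These limits and the intervals of ratios below take in counting error of reads alone. The intervals of shares treat promoters as independent draws and do not take in counting error of reads. The reads carried no molecular identifiers and may repeat the same molecule, which none of these limits or intervals takes in. Summed over the listed promoters, the ChIP libraries held 162233 and 229605 reads and the inputs 619100 and 1084349, and the median promoter had 8 ChIP reads over both experiments. At this depth single promoters are poorly resolved.

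The number of promoters without ChIP reads to be expected depended on the ratio assumed and on whether it could differ between promoters. If every promoter had carried the same ratio of ChIP to input reads, that of all reads pooled (0.277 in v102, 0.209 in v134), Poisson counting error at each promoter's own input reads would have left 2.18 promoters without ChIP reads, and 405 were observed, which is 186 times as many. The probability of 0 reads under that ratio had a median of 5.50e-06 over the 405 and was below 0.001 at 385 of them. With the median ratio in place of the pooled one (0.182 and 0.125), 28.7 were expected, and with ratios pooled separately in 20 classes of promoter GC content, 41.8 were expected against 398 observed among promoters with a known window. A ratio that differs from promoter to promoter gave the opposite order. A gamma distribution of ratios fitted to the counts gave 1028 promoters and a lognormal one 603, so fewer were observed than either predicted. The 405 promoters thus exceeded the expectation from counting error around 1 shared ratio. So did the promoters at 1 read, with 13.5 expected and 902 observed. The gamma and lognormal spreads were fitted to these same counts, zeros included, so they describe the counts and cannot test the 405. At 3 reads the gamma curve gave 1003 promoters and the lognormal curve 1247, with 1337 observed. The distribution of counts had no gap between 0 (405), 1 (902) and 2 reads (1172).

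**Figure D2:**
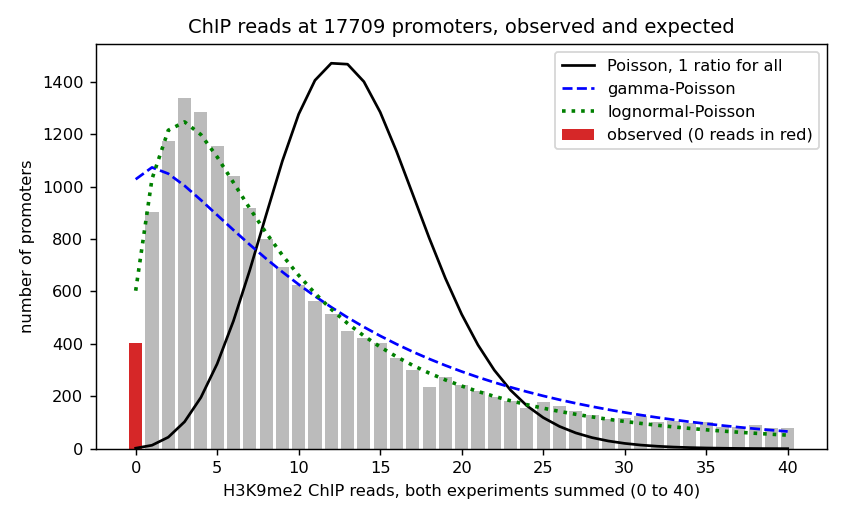
Number of promoters (y axis) by ChIP reads summed over both experiments (x axis, 0 to 40 reads), with the 405 promoters at 0 in red and lines for the numbers expected under 1 shared ratio (Poisson), a gamma distribution of ratios and a lognormal distribution of ratios. The Poisson curve predicts 2.18 promoters at 0, the lognormal curve 603 and the gamma curve 1028.

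Because each experiment chose its promoters separately, the other experiment gave a measure that the choice had not used. The 1839 promoters with 0 ChIP reads in v102 had 4007 ChIP and 64912 input reads in v134, a ratio of 0.0617, compared with 0.225 at the other 15870 promoters. Their ratio was 0.274 of that of the rest (95% exact interval 0.266 to 0.283). In the opposite direction, the 1521 promoters with 0 ChIP reads in v134 had a v102 ratio of 0.0888 against 0.294 at the rest, or 0.302 of it (0.291 to 0.314). Low H3K9me2 in 1 experiment went with low H3K9me2 in the other, in both directions.

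The same held for the count of 0 itself. Of the 1839 promoters at 0 in v102, 22.0% (Wilson 95% interval 20.2% to 24.0%) were at 0 in v134, compared with 7.03% of the others. Of the 1521 at 0 in v134, 26.6% (24.5% to 28.9%) were at 0 in v102, compared with 8.86% of the other 16188. Even so, most promoters at 0 in 1 experiment had reads in the other. If all promoters at 0 in v102 had shared their own pooled v134 ratio of 0.0617, 253 would have been at 0 in v134, and 405 were. The equivalent number for v102 was 301. Within classes of ChIP reads in v102, the v134 ratio relative to all promoters rose from 0.295 at 0 reads through 0.365 at 1, 0.454 at 2 and 0.606 at 3 or 4 reads to 3.39 at 17 reads or more. Sorted by v134, the v102 ratio rose from 0.321 at 0 reads and 0.370 at 1 read to 2.96 at 17 or more. The intervals of the classes at 0 and at 1 read did not overlap in either direction, but the step between them was small.

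**Figure D3:**
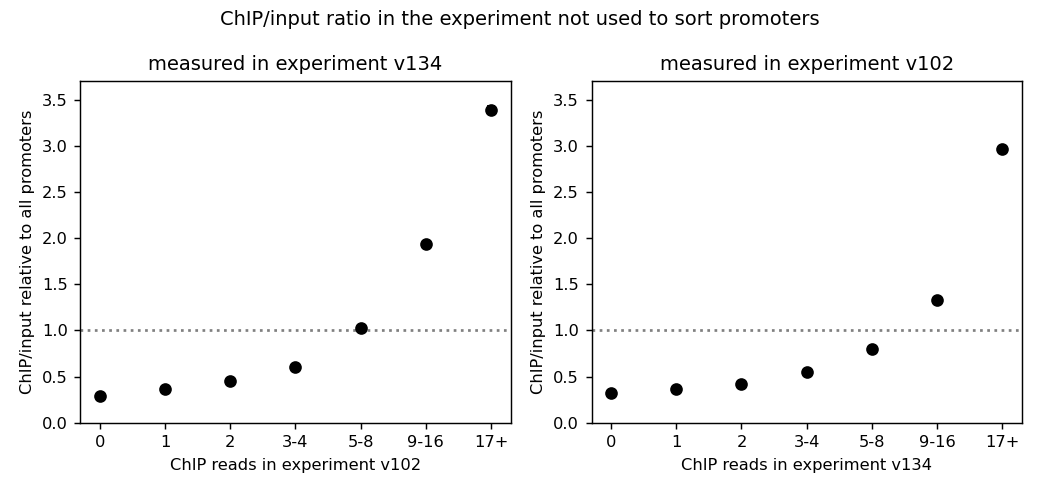
ChIP/input ratio relative to all promoters (y axis) for promoters sorted by their ChIP reads in the other experiment (x axis, classes of reads), with v134 measured on the left and v102 on the right. Dots are pooled ratios and bars, mostly smaller than the dots, 95% exact Poisson intervals. Promoters at 0 reads lie at 0.295 and 0.321 of the ratio of all promoters, and the ratio rises in each class to 3.39 and 2.96.

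In both experiments part of this went with GC content. Against promoters of the same GC class, those at 0 in v102 had 0.420 of the v134 ratio, and those at 0 in v134 had 0.472 of the v102 ratio. The difference was smaller than without the GC classes but kept its direction.

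ChIP and input were also compared with the edgeR quasi-likelihood test, which used the same counts as the selection and is given as a description. All 405 promoters lay below input with a Benjamini-Hochberg adjusted p at or below 0.05, beside 17.0% of all 26354 promoters. With the experiment number as a replicate block, 359 of the 405 did, beside 8.30% of all promoters. Nothing further is read from these counts, since the promoters were chosen on these ChIP reads.

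The sequence around the start sites was richer in GC at the promoters without ChIP reads than at the rest. A symbol match to GENCODE gave a window for 398 of the 405 promoters and for 16945 of the others. Median GC content of the 2 kb window was 58.5% compared with 51.8% at the rest, and 57.1% at the promoters with a single ChIP read. The median window held 119 CG compared with 66. Observed over expected CG, the number of CG divided by that implied by the C and G content, had a median of 0.714 compared with 0.498. Windows with GC content over 50% and observed over expected CG over 0.6 made up 284 of the 398 (71.4%) and 32.0% of the rest. At promoters with a single ChIP read they made up 62.8%, so these traits were not particular to promoters without reads.

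Read the other way, the share of promoters without ChIP reads rose with GC content. It was 0.193% at 35% to 40% GC, 0.926% at 45% to 50%, 2.91% at 55% to 60%, 7.29% at 60% to 65% and 11.5% (8.81% to 14.8%) above 65%. The Wilson intervals at 45% to 50% GC (0.657% to 1.30%) and at 60% to 65% GC (6.11% to 8.69%) did not overlap. Such intervals take promoters as independent, which those that share a window are not. By observed over expected CG it rose from 0.448% below 0.2 to 7.64% between 0.8 and 1. By summed input reads it was 4.09% at 21 to 30 reads and fell from 4.91% at 30 to 40 reads to 0.728% at 70 to 80. GC-rich windows also had fewer input reads at the top of the range (median 46 above 65% GC, 60 between 50% and 55%), and the part of GC content in the ChIP counts was not tested.

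**Figure D4:**
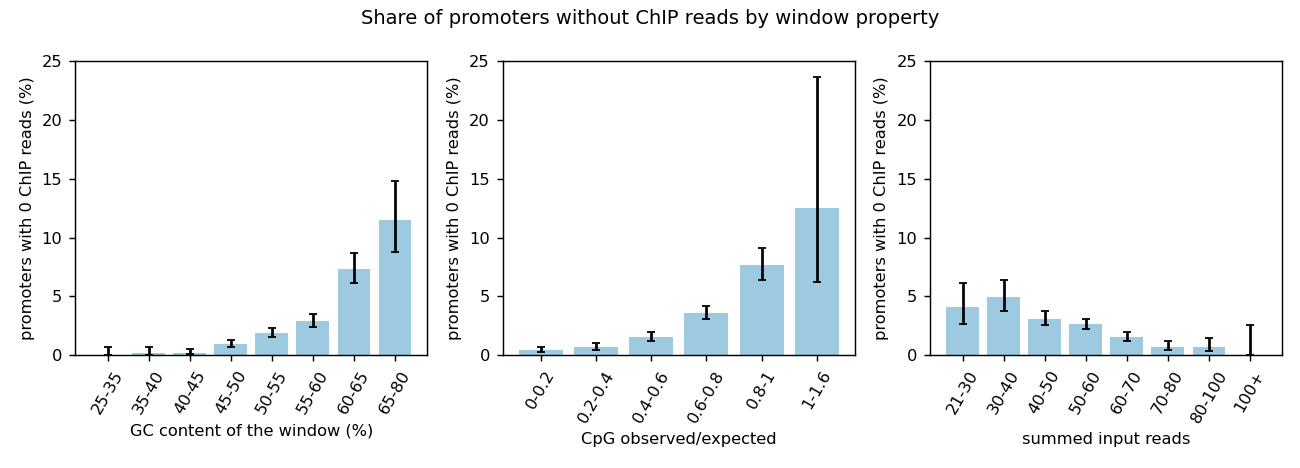
Share of promoters without ChIP reads (y axis, percent) by GC content of the 2 kb window, by observed over expected CG and by summed input reads, with 95% Wilson intervals. The share rises to 11.5% in the most GC-rich class and to 12.5% in the class with most CG. By input reads it is 4.09% in the lowest class, 4.91% in the next, and lower in each class of 40 reads or more.

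CG-poor exceptions were few. At 16 of the 398 promoters observed over expected CG was below 0.2, the class that held 3570 promoters in all. They were chosen for description after their values were seen. Among them were Emilin1 (0.176), the H3K27 demethylase gene Kdm6b (0.188), the microsomal epoxide hydrolase gene Ephx1 (0.166), the semaphorin gene Sema3g with its neighbour Nisch (0.173 and 0.174), and S100a7a (0.127). Input reads at the 16 ranged from 9 and 14 at Akap14, 8 and 23 at Samd9l and 13 and 16 at Magix to 25 and 43 at Kdm6b and 29 and 39 at Emilin1. Myh11, the smooth muscle myosin heavy chain, had a value of 0.298.

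Short motifs in the 300-base RefSeq promoters were counted on both strands. Promoters within 1 kb of the GENCODE start were found for 287 of the 405 and for 11231 of the others. GGGCGG, the GC box bound by Sp and Klf factors, was present in 78.4% of the promoters without ChIP reads, 54.9% of the rest and 55.5% of all. TATAAA, the TATA box, was present in 3.48% compared with 10.7% of the rest and 10.5% of all. TGAGTCA, the AP-1 site, was present in 2.09% compared with 4.43% and 4.37%. CCAAT was found in 41.5% and 38.3% of the rest (38.4% of all), CCGGAAG, an ETS site, in 17.4% and 13.6% (13.7%), CACGTG, an E-box, in 10.1% and 8.97% (8.99%), TGACGTCA, a cyclic AMP response element, in 2.79% and 2.74% (2.74%), and the CArG box of serum response factor in 1.05% and 1.35% (1.35%). Of the sequences printed above, those of Tpp2, Kcnh1, Zbtb25 and Zbtb5 held the GC box, that of Acaa1b did not, and the Mmp3 promoter held both the TATA box and the AP-1 site. GC content differed between the sets, and a match marks letters and not a bound site. The median promoter held 28 CG in 300 bases compared with 17.

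Paired starts were common. The 2 kb window overlapped that of another listed promoter at 129 of the 398 (32.4%), compared with 16.8% of the rest, and such promoters share reads. Among promoters with a single ChIP read the share was 30.7%, close to that of the 398. In 30 pairs both promoters were without ChIP reads, all 30 on opposite strands with starts 18 to 966 bases apart, so the 405 promoters stand for at most 375 separate places. Ddx51 and Noc4l, both of ribosome biogenesis, had identical input counts of 24 and 33. The heat shock factor gene Hsf1 and Bop1 each had 24 and 31. Gt(ROSA)26Sor, the Rosa26 locus used for ubiquitous transgene expression, had 15 and 31 input reads and its neighbour Setd5 15 and 30. The window of 269 promoters without ChIP reads overlapped no other.

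By position, 32 of 531 promoters on the X chromosome (6.03%) had no ChIP reads, compared with 366 of 16805 (2.18%) on the autosomes. The median X promoter had 30 summed input reads and the median autosomal one 57. Male cells carry a single X. At 21 to 40 input reads the shares were 6.62% (4.71% to 9.25%) on X and 3.95% (2.92% to 5.31%) on the autosomes. These intervals overlap, which does not show that the shares are equal. Median GC content was 48.9% on X and 52.1% on the autosomes. What the X share owes to input reads was not tested. At 40 to 60 reads the shares were 1.61% (1 of 62) on X and 2.80% on the autosomes. Among autosomes the share ran from 1.10% on chromosome 16 to 3.38% on chromosome 11. Of the matched symbols 395 (99.2%) were annotated as protein coding, compared with 96.9% of all matched promoters. A further 7 symbols had no match, among them 2 that the table holds as dates.

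The genes were sorted by symbol into 29 lists, which were chosen with earlier results of these data known. Of the 405, 138 fell in at least 1 list and 267 in none. The share without ChIP reads, 2.29% over all, was exceeded in 19 lists, and the Wilson interval lay wholly above it in 8 and wholly below it in 2. Since GC content moved with the selection, the number expected from a list's GC content alone was computed from the share without ChIP reads in 20 classes of GC content. It was exceeded in 16 lists, in 5 of them by the whole interval, and no interval lay wholly below it. A minimum of 20 reads per input left 181 of 9529 promoters without ChIP reads. For the 8 lists with intervals wholly above 2.29%, the shares at that depth follow without intervals. They were 15.4% for immediate early genes, 9.41% for the signalling list, 5.38% for cell cycle and 5.04% for chromatin regulators. Mitochondrial genes had 4.29%, splicing 3.55%, the forkhead list 3.51% and the smooth muscle list 2.50%. Of the 29 lists, 25 stayed on the same side of the share of all promoters at that depth. The others fell from above it to below it. Hox clusters had 0%, ubiquitin enzymes 1.75%, kinases and phosphatases 1.46%, and tubulins and motors 1.56%.

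Immediate early genes, induced within minutes by growth factors or stress, had the highest share, with 6 of 46 promoters (13.0%, 6.12% to 25.7%) against 2.15 expected from GC content. That interval overlapped those of the lists next in order. The members with most input were Gadd45b, a stress-induced regulator (23 and 47 input reads), Socs3, an inhibitor of cytokine signalling (22 and 39), and the zinc finger factor Egr2 (21 and 33). The others were the oncogene Myc (15 and 39) and the AP-1 subunit genes Fosb (25 and 28) and Jun (19 and 33). A single ChIP read was found at 7 further promoters of the list, and the list's median was 3 reads over both experiments compared with 8 over all promoters. Over the whole list the ratio relative to all promoters was 0.247 in v102 and 0.284 in v134. This median and ratio take in the 6 promoters fixed at 0 by the selection.

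Genes of smooth muscle contraction and the actin cytoskeleton had 5 of 66 promoters without reads (7.58%, 3.28% to 16.5%, 2.40 expected from GC content). Only Arpc5l of the 5 had at least 20 reads in each input, and among promoters with that depth the share of the list was 2.50%, close to that of all. Arpc5l, a subunit of the actin-nucleating Arp2/3 complex, had 25 and 39 input reads, Myh11 had 19 and 41, and Actg1, the second cytoplasmic actin, had 19 and 30. Capzb, which caps actin filaments, and Tmsb4x, which binds actin monomers, completed the group. Contractile promoters did not behave alike. Of 7 smooth muscle markers only Myh11 was without ChIP reads, Acta2 had 0 and 4, Tagln 2 and 3, Cnn1 0 and 5, Lmod1 and Myocd 2 and 3 in sum, and Smtn had 15 and 34. None of 4 endothelial, 3 fibroblast and 3 leukocyte markers was at 0, with sums of 5 to 30, 1 to 24 and 6 to 54 reads. Counts of a repressive mark at promoters do not measure which cells were present, so the identity of the tissue rests on its dissection.

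The list of Wnt, Bmp, Tgfb, Fgf, Notch and Pdgf signalling had 12 of 172 promoters without reads (6.98%, 4.04% to 11.8%), with 8.07 expected from GC content. The list also took in hedgehog genes, and Ptch1 and Gli3 are among the 12. Receptors in the group were Acvr2a and Acvr1 of the activin and Bmp pathway, Pdgfrb, the Pdgf receptor of mural cells, Notch2 and the hedgehog receptor Ptch1. Ligands and their processing were represented by Dll4, Wnt5a and Bmp1, and downstream factors by Smad1, Smad4, Smad6 and Gli3. Smad1, a mediator of Bmp signals, had 19 and 41 input reads, Acvr2a 27 and 31, and Pdgfrb 23 and 35. All lacked ChIP reads although their observed over expected CG ranged from 0.308 at Pdgfrb to 1.06 at Acvr2a.

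Chromatin regulators held 14 of 203 (6.90%, 4.15% to 11.2%) against 7.85 expected from GC content. Kdm6b had 25 and 43 input reads, the histone variant gene H2afx 23 and 44, and the acetyltransferase gene Kat2b 27 and 36. Kdm6a, the X-linked relative of Kdm6b, was also among them with 14 and 19 input reads, as were the methyltransferase genes Setd1b, Setd5 and Whsc1. None of 7 H3K9 methyltransferase promoters was at 0, a group too small to limit the share, counted after the symbols had been seen together with 14 promoters of H3K9 and H3K27 demethylases, of which Kdm6a and Kdm6b were at 0.

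Other nuclear functions followed. Splicing and RNA binding held 13 of 242 (5.37%, 3.17% to 8.97%, 5.97 expected), led by Sf3a3 of the spliceosome (13 and 48 input reads) and the RNA-binding protein gene Hnrnpa2b1 and helicase gene Ddx31 (22 and 36 each). Forkhead, Sox, Gata, T-box and Klf/Sp factors held 6 of 107 (5.61%, 5.24 expected), with Foxc1 (26 and 37), Foxo1 (21 and 33) and Klf3 (17 and 29) having most input, so here GC content alone gave nearly the observed number. Nuclear receptors and coregulators held 3 of 54, with 2.01 expected, which were the retinoic acid receptor genes Rara (29 and 42) and Rarg (22 and 33) and the coactivator gene Ncoa6 (12 and 32). The transcription machinery list held 5 of 141 (3.55%, 3.04 expected), including the Mediator gene Med22 and also Gtf3c4, a subunit of an RNA polymerase III factor. Hox clusters held 2 of 39 (5.13%, 1.41 expected), the neighbours Hoxb6 and Hoxb7, and other homeobox factors 2 of 133 (1.50%) with 5.90 expected.

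Among housekeeping functions the shares varied. Cell cycle and DNA replication held 8 of 147 (5.44%, 2.78% to 10.4%, 3.56 expected), including Pold2 and Mad2l2, though Cdc37 and Cdc42bpb in that list are a chaperone partner and an effector kinase of Cdc42. Mitochondrial import and respiratory chain genes held 6 of 113 (5.31%, 2.46% to 11.1%, 2.01 expected), led by Tomm6, Cox19, an assembly factor of cytochrome oxidase, and Atp5s. Tubulins and motors held 5 of 101 (2.79 expected), nuclear pore and transport 3 of 62 (1.81 expected), translation factors 4 of 107 (2.43 expected) and chaperones 5 of 138 (3.21 expected), among them Hspa5 (18 and 47 input reads) and Hspa8 (13 and 46). Ubiquitin enzymes held 14 of 421 (3.33%, 12.2 expected), with the deubiquitinase genes Usp21 and Usp5 first, kinases and phosphatases 9 of 327 (2.75%, 11.8 expected), small GTPases and their regulators 5 of 155 (5.57 expected), extracellular matrix and integrins 4 of 175 (2.29%, 4.19 expected), and bHLH factors 2 of 69 (2.90%, 2.70 expected). The intervals of immediate early, chromatin, splicing, cell cycle and mitochondrial genes lay wholly above the GC expectation, and those of the smooth muscle and signalling lists did not. The cell cycle interval counts Cdc37 and Cdc42bpb among its 8, and its lower end of 2.78% is close to the 2.42% expected. The list without them was not examined, so nothing is read from this interval about cell cycle genes. No allowance was made for reading 29 lists.

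The members with most input in the other lists covered a like range of reads. In the transcription machinery list, Gtf3c4 and Taf15, an RNA-binding protein related to Ewsr1, had 21 and 35 input reads each and Med22 had 20 and 41. Among translation genes, Eif4b had 20 and 43 and Eif4g2 20 and 33. The ubiquitin ligase gene Rnf41 had 18 and 44, and Cct5, a subunit of the chaperonin that folds actin and tubulin, 27 and 37. The kinase genes Cdk11b, Stk35 and Wnk1 had 19 and 43, 26 and 34, and 28 and 30. The exchange factor gene Arhgef7 had 21 and 41 and the GTPase gene Rap2a 21 and 32. The nucleoporin gene Nup98 had 17 and 42 and the exportin gene Xpo4 26 and 31. Tuba1b, an alpha tubulin, had 16 and 34, its folding cofactor gene Tbcc 22 and 29, and the kinesin gene Kif26a 19 and 29. In the extracellular matrix list, the transmembrane collagen gene Col13a1 had 18 and 30, Adamtsl5 18 and 27, and the integrin gene Itga3 21 and 23. The sorting nexin gene Snx33, Trappc4 and the autophagy gene Atg2b had 30 and 36, 21 and 32, and 16 and 35. The channel list held, beside Kcnh1, the glutamate receptor gene Grik3 (18 and 18). Apart from Kcnh1, all had at most 30 reads in the v102 input.

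Counts were below the GC expectation in vesicle trafficking (4 of 324, 1.23%, 0.481% to 3.13%, 7.42 expected), DNA repair (1 of 98, 1.02%, 0.180% to 5.56%, 1.81 expected) and ion channels and neurotransmitter receptors (3 of 258, 1.16%, 0.396% to 3.36%, 7.62 expected), though these intervals include the 2.29% of all promoters. Cytokines, chemokines and lymphoid receptors held 1 of 357 (0.280%, 0.0495% to 1.57%, 4.05 expected), which was Il4i1, an amino acid oxidase whose window overlaps that of Atf5. No promoter was at 0 among 1222 olfactory and vomeronasal receptors, which allows up to 0.245%, with 1.67 expected from their GC content, and their ratio was 3.15 and 3.17 times that of all promoters in v102 and v134. None was at 0 among the keratin genes (up to 2.94%, 1.11 expected), the 82 cytochrome P450 genes (up to 3.66%, 0.790 expected) and the 50 proteasome genes (up to 6.00%, 0.769 expected). The proteasome differed from the sensory receptors in having ratios below those of all promoters, 0.705 and 0.907 of them, with 4 promoters at a single read.

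**Figure D5:**
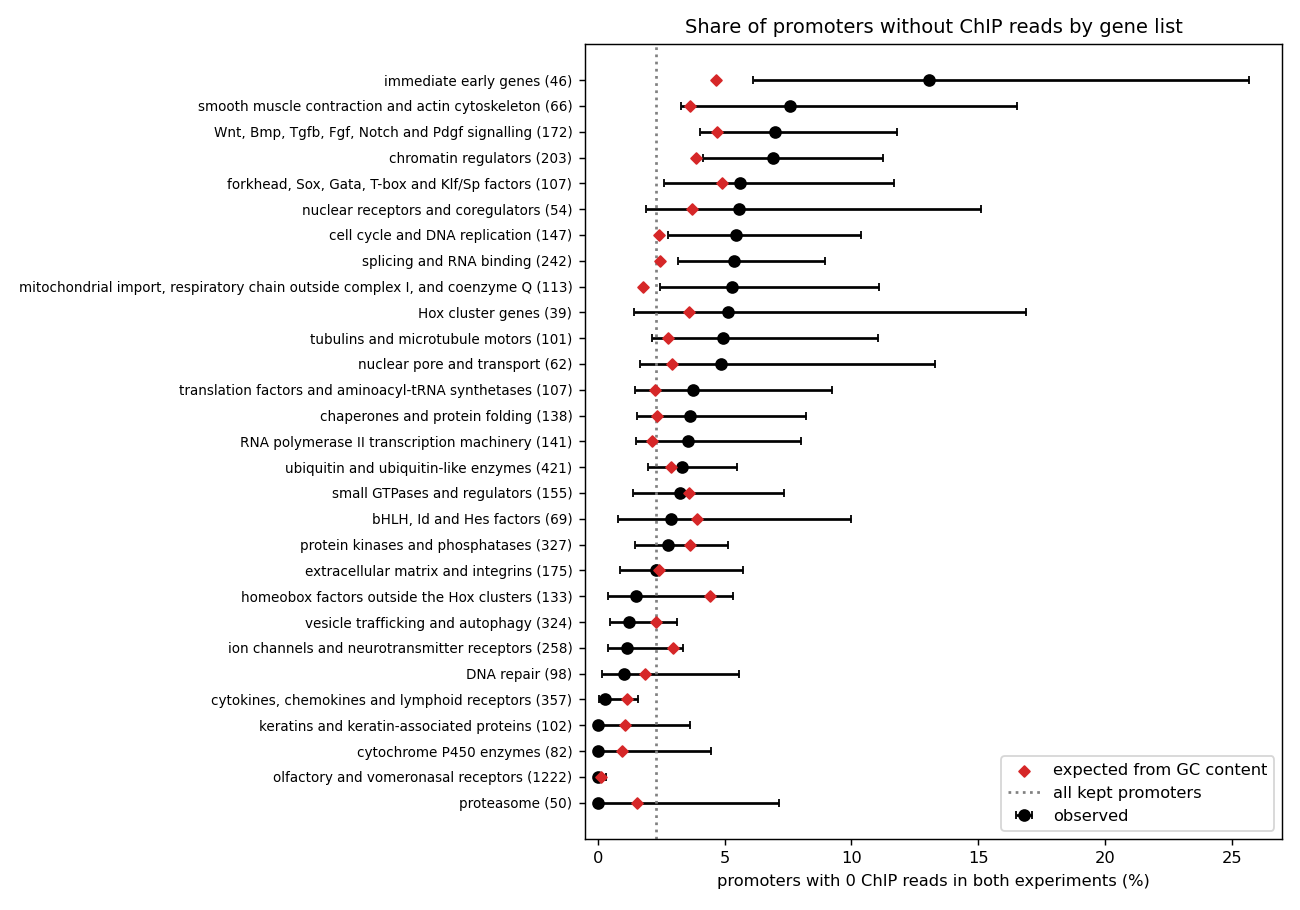
Share of promoters without ChIP reads (x axis, percent) in each of 29 gene lists, with the number of promoters in parentheses. Black dots and bars are the observed share with its 95% Wilson interval, red diamonds the share expected from GC content, and the dotted line the 2.29% of all 17709 promoters. Immediate early genes are highest at 13.0%, and olfactory and vomeronasal receptors, keratins, cytochrome P450 and proteasome genes are at 0.

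Small gene families that recurred among the symbols were counted after those symbols had been seen, so these counts choose their own examples. Smad genes had 3 of 8 promoters without reads. Over all 8 the ratio relative to all promoters was 0.0619 in v102 and 0.127 in v134. That ratio takes in the 3 fixed at 0 by the selection, so part of its low value is the selection itself. Socs and Cish genes, feedback inhibitors of cytokine receptors, had 3 of 8 (Socs2, Socs3 and Cish). Zbtb factors had 6 of 37, Fos and Jun subunits 2 of 7 and Wnk kinases, which regulate chloride transport, 2 of 3. Traf adaptors had 2 of 7 and Dtx ligases 2 of 5. From GC content 1.55 were expected for Zbtb factors, 0.522 for Smad and 0.462 for Socs and Cish genes. The number was 0.405 for Fos and Jun, 0.224 for Wnk, 0.220 for Traf and 0.150 for Dtx genes. The share over all promoters was 2.29%. Families this small leave wide intervals, 20.8% to 93.9% for Wnk kinases. Of 9 mTOR complex genes Mlst8 and Rictor were at 0, with 0.218 expected from GC content. Of 17 circadian clock genes Per2 and Ccrn4l were at 0 (11.8%, 3.29% to 34.3%), with 0.787 expected. A further 5 clock genes had a single read, and the highest had 9.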

How the data were processed

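H3K9me2 ChIP and input libraries of 2 experiments were read as deposited. The authors trimmed paired-end reads (Trim Galore 0.4.2 and cutadapt 1.9.1 in the submitters' processing notes), aligned them to GRCm38 with Bowtie2 2.2.7 and deposited raw read counts per promoter window (the start site and 1 kb on each side) from SeqMonk. They also deposited an unscaled ratio, the ChIP sum over the input sum. The annotation release and duplicate handling are not given in the sources used here. The promoters and gene lists were chosen with earlier results of these data known.

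Of 26354 symbols 24075 matched 1 gene of GENCODE M21, and 17343 of the 17709 kept. Whether the authors took the same start site for a matched symbol is unknown. Expected numbers used Poisson error at each promoter's input reads, with median, gamma, lognormal and GC-binned (20 bins) ratios as alternatives, the lognormal one and the GC expectation of the lists having been chosen after seeing the data. Intervals are at 95%, and 3 reads set the limit of a count of 0. All listed promoters were fitted with edgeR 4.0.16 (R 4.3.3, TMM, quasi-likelihood test, Benjamini-Hochberg adjustment at 0.05), tested on simulated data, with DESeq2 1.42.0 as an alternative. TMM and library totals left the median log2 fold change of ChIP over input at -0.35 and -0.50. Replicates are the 2 experiments. At the 405 promoters both ChIP counts were 0, so the ChIP libraries showed no spread there. Their edgeR p-values rested on a spread estimated across promoters and on input reads. The edgeR adjusted p was 3.40e-06 at Tpp2 (99 summed input reads) and 0.0318 at Rap2c (21). The study states that each ChIP has its own input, so libraries were paired by experiment, and the differences between experiments in ChIP and in input had a correlation of 0.104 across promoters.

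The text names the 25 promoters without ChIP reads that had most input, the 3 with most input in each list with at least 3 of them, those with least input, the 5 single-read promoters with most input, and Actb, Mmp3 and Myh11 as references. Some items these rules select are not reported here. Others were named after their values were seen. Promoter sequences came from RefSeq (GRCm38.p6, 305 of 405 promoters). Calculations ran in Python 3.11.15 with scipy 1.17.1, pandas 2.3.3, numpy 2.4.6 and matplotlib 3.10.9.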

Additional observations from a re-analysis of the deposited data

How the results depend on the processing

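The number of promoters without ChIP reads was 405, and 523 over all symbols, 366 on autosomes and 269 among matched promoters without overlapping windows. It was 181 under a minimum of 20 reads per input and 1307 with 1 ChIP read allowed. A single experiment gave 1521 to 1839. The expected number of 2.18 became 28.7 with the median ratio, 41.8 with ratios pooled in GC bins, 0.126 under a minimum of 20 reads per input, 1028 with gamma-Poisson and 603 with lognormal-Poisson counts, and 47.3 to 228 in a single experiment. The observed number was accordingly 186, 14.1, 9.52 and 1439 times the expected one under the pooled ratio, the median ratio, the GC bins and the minimum per input, 8.08 to 32.2 times in a single experiment, and 0.394 and 0.672 of it under gamma-Poisson and lognormal-Poisson counts, which let the ratio differ between promoters and so turn the direction. With the edgeR dispersion the factor was 151.

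The v134 ratio of promoters at 0 in v102, 0.274 of the rest, was 0.314 under a minimum of 20 reads per input and 0.420 within GC bins. The v102 ratio of promoters at 0 in v134, 0.302 of the rest, was 0.472 within GC bins. Autosomes alone changed neither beyond its interval. The GC difference of 6.70 percentage points was 7.67 over the 300-base promoter and 5.70 under a minimum of 20 reads per input. Median input reads relative to the rest were 0.912, and 0.865 to 0.950 in a single experiment.

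With the replicate block, edgeR placed 359 of the 405 promoters below input, with library totals 405, and under a minimum of 20 reads per input all 181 tested. DESeq2 left the adjusted p undefined at all 405, and at 17372 of the 26354 listed promoters. It placed 29 listed promoters below input, where edgeR placed 4484, so the share of all promoters below input depended on the method. Fits without either experiment were not run, since 1 library against 1 leaves no residual degrees of freedom. Of the 29 lists, 23 stayed on the same side of the share of all promoters with 1 ChIP read allowed, 25 under a minimum of 20 reads per input, and 23 and 22 without v102 and without v134. The cause of these changes was not tested.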
